A study of Mus musculus with 2 samples.

Results

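Tetraspanins are small membrane proteins that cross the membrane repeatedly and gather receptors, integrins and signalling proteins into shared membrane patches. The genes described here are 7 tetraspanins, Ms4a1 for CD20 of the unrelated MS4A family, and Cr2 for the complement receptor CD21. They were chosen by symbol: a probe set, the group of short probes that reads 1 transcript on the array, belonged to the set if it named exactly 1 of the 9 symbols. This gave 16 probe sets for 8 genes, of 20380 probe sets for 12393 genes in all. Cd63 was matched by no such probe set and was not analysed here, and 0 probe sets named a member beside another gene.

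RNA came from mouse spleen cells sorted by flow cytometry for surface IgM and IgD, the phenotype of mature B cells. The samples are 2 arrays of 1 group, wild type with respect to Srf, whose label for genetic modification reads as none. The study was designed to compare such cells with cells deficient in Srf, a transcription factor of growth factor and cytoskeletal genes; the SRF-deficient arrays were not analysed here, so no genotype effect is reported. The labels used here give no strain, age, treatment or number of animals. Whether separate mice were used is not stated, so the spread between the samples may be technical. Replicates 1 and 2 are names only.

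On resting B cells, CD81 and CD21 belong to a coreceptor complex that lowers the threshold of antigen receptor signalling when an antigen carries complement fragments. CD37 and CD53 are leukocyte tetraspanins, CD20 is a surface protein of B cells targeted by therapeutic antibodies, and CD9 is known as a surface marker of marginal zone and B1 cells. CD82 and CD151 associate with integrins in many cell types, and CD63 resides mainly in late endosomes.

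Values are MAS5 signals, a linear intensity in arbitrary units that MAS5 computes from matched and mismatched probes and scales by 1 factor per array. An expression floor was set on each array at the 90th percentile of 92 probe sets for 59 genes typical of other organs. It was 179 in replicate 1 and 105 in replicate 2. The median signal over all gene probe sets was 103 and 66.6. Between the arrays, the pooled standard deviation (SD) of log2 signal over 4518 probe sets above both floors was 0.64, or 1.56-fold. The arrays differed in their controls. All 18 probe sets for bacterial and phage control RNAs were higher in replicate 1, by 3.39-fold to 13.2-fold. The ratio of 3′ to 5′ signal of the Actb control was 3.57 in replicate 1 and 8.15 in replicate 2, and for Gapdh it was 1.31 and at least 7.85, with its 5′ signal of 13.5 in replicate 2 raised to the floor. The part of these array properties in the differences below was not tested. With 1 group no test between conditions exists, and all differences are descriptions of 2 arrays. Probe affinity varies, so the signal of one probe set is not set against that of another as an amount of RNA.

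Transcripts of 6 of the 8 measured genes were above the floor on both arrays: Cd81, Cd37, Cd53, Cd82, Ms4a1 and Cr2. Cd9 was below the floor on both, and Cd151 had no probe set above the floor on both. By probe set the count was 8 of 16, or 50%, against 22.2% of all probe sets naming 1 gene. By gene, 27.7% of all genes had a probe set above both floors. Of the other 8 probe sets, 5 were below the floor on both arrays and 3 were above it on 1 array. The genes were named with B cell expression known, so the share is a description of the set.

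**Figure D1:**
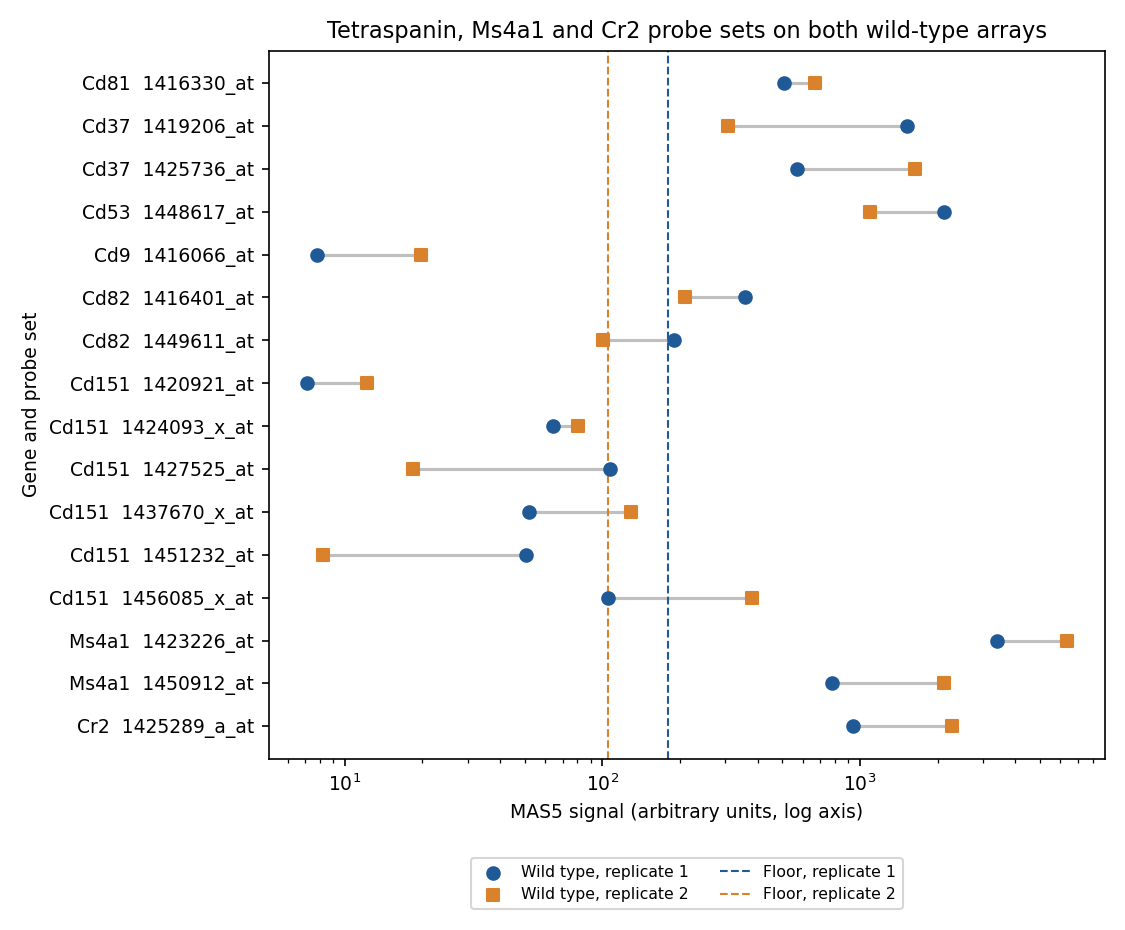
MAS5 signal (log axis) of the 16 probe sets, with a circle for replicate 1, a square for replicate 2 and dashed lines at each array's floor (179 and 105). Both Ms4a1 probe sets, Cr2, Cd81, Cd53, both Cd37 probe sets and 1 of Cd82 lie right of both floors, while Cd9 lies left of both.

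The start of 3 genes is shown because each was read by a single probe set and has a reference window that lies wholly before the annotated gene: Cd53 and Cd81, above both floors, and Cd9, below both. Each is the 250 bases before the transcription start, from RefSeq on GRCm38.p6, 5′ to 3′ on the strand of the gene. They were taken from chr3:106790150-106790399 on the minus strand, chr7:143052500-143052749 on the plus strand and chr6:125494761-125495010 on the minus strand. Capitals mark GAGGAA on either strand, the core bound by the haematopoietic factor PU.1.
Cd53: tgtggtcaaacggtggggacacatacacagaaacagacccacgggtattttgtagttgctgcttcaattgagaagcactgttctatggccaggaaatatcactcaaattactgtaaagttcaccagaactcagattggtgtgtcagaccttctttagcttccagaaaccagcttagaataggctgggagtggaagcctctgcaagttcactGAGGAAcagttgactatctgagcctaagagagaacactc
Cd81: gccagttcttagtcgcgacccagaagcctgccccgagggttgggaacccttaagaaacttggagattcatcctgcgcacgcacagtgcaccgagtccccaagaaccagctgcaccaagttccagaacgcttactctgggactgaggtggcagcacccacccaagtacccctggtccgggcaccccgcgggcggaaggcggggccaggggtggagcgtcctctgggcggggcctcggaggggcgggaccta
Cd9: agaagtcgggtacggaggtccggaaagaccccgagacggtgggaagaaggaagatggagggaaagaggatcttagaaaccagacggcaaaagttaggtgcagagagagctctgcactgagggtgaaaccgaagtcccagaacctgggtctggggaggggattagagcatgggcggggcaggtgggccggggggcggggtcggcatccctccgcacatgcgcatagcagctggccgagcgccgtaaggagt
The Cd53 window holds 1 match, whose first base lies 39 bases before the start, and those of Cd81 and Cd9 hold 0. All 12 reference windows of 250 bases for 8 of the 9 genes were also searched, whether or not they lay wholly before the gene. Of these, 4 held GAGGAA, those of Cd37, Cd53, Cd82 and Cd63, against 23.3% of 32851 windows of the same length. The octamer ATGCAAAT, searched on both strands, was in 0 of the 12 against 1.60%, and the CArG box bound by SRF in 0 of the 12 against 1.47%. No marked match overlapped another motif searched. A match is a description of letters, and no binding was measured.

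The coreceptor genes Cr2 and Cd81 were detected on both arrays. Cr2 encodes the receptor that binds C3d-coated antigen, and in the mouse the same gene also gives the longer receptor CD35 by alternative splicing. Its single probe set gave 940.3 in replicate 1 and 2275 in replicate 2, a mean of 1607 ± 943 (SD, n = 2). These signals were 5.24 and 21.7 times the floor of their array. Replicate 2 was thus the higher, by 2.42-fold, and 14.6% of all probe sets above both floors differed by at least as much. The difference was 1.55-fold with quantile normalization and 3.75-fold with median centring. Cd81 gave 506.5 in replicate 1 and 671 in replicate 2, a mean of 589 ± 116 (SD, n = 2). The arrays lay close for Cd81, 1.32-fold apart, which is 0.635 pooled SD, and 65.4% of probe sets above both floors differed by at least as much. With median centring Cd81 was 2.06-fold higher in replicate 2. The 2 signals of Cd81 exceeded 94.4% and 94.2% of probe sets on their arrays, and those of Cr2 exceeded 97.9% and 98.8%.

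The leukocyte tetraspanins Cd37 and Cd53 were also above both floors, but the probe sets of Cd37 opposed each other. CD37 is abundant on mature B cells. One probe set of Cd37, 1425736_at, gave 571 in replicate 1 and 1632 in replicate 2, and was 2.86-fold higher in replicate 2. The other, 1419206_at, gave 1528 and 307, and was 4.98-fold higher in replicate 1. No single direction can therefore be given for Cd37. Only 1.37% of probe sets above both floors had a difference as large as that of 1419206_at, and 8.34% one as large as that of 1425736_at. The platform annotation ties them to different cDNA records, and which part of the transcript each reads was not analysed here.

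The disagreement within Cd37 can be set against other genes read by more than 1 probe set. Of 791 genes with at least 2 probe sets above both floors, 33 genes (4.17%) had probe sets over 2-fold apart in opposite directions, Cd37 among them. The gap between the log2 differences of the probe sets of Cd37 was 3.83, and 5 of the 791 genes, Cd37 included, had a gap at least that wide. The median gap was 1.01. For Ms4a1 the gap was 0.54, and 72.3% of genes had one at least as wide. Opposite signs of any size were common, in 49.7% of the 791 genes.

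**Figure D2:**
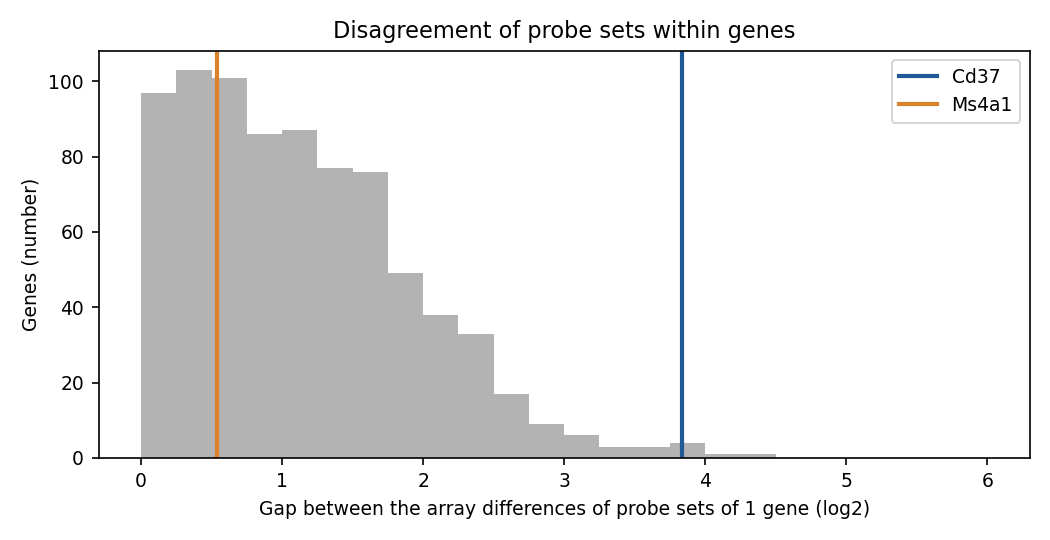
Histogram of the gap, in log2 units, between the largest and smallest array difference among probe sets of 1 gene, for 791 genes with at least 2 probe sets above both floors; vertical lines mark 2 genes. Cd37 lies at 3.83 in the right tail and Ms4a1 at 0.54, left of the median of 1.01.

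Cd53, a tetraspanin of all leukocytes, gave 2112 in replicate 1 and 1098 in replicate 2, a mean of 1605 ± 717 (SD, n = 2). Replicate 1 was the higher by 1.92-fold, and 28.6% of probe sets above both floors differed by as much or more. Relative to the floor of its own array Cd53 was similar on both, at 11.8 and 10.5 times.

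Ms4a1 was read by 2 probe sets, both above the floors and both higher in replicate 2. The brighter, 1423226_at, gave 3394 in replicate 1 and 6347 in replicate 2, a mean of 4870 ± 2088 (SD, n = 2) and a 1.87-fold difference. The other, 1450912_at, gave 779 and 2112, a mean of 1445 ± 943 (SD, n = 2) and a 2.71-fold difference. Both probe sets carry the same cDNA record in the annotation, so they are not independent readings of separate transcripts. The brighter one stood at 18.9 times the floor in replicate 1 and 60.5 times in replicate 2, and exceeded 99.5% and 99.7% of all probe sets.

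The integrin-associated tetraspanins Cd82 and Cd151 lay nearer the floor. The brighter Cd82 probe set, 1416401_at, gave 358 in replicate 1 and 210.0 in replicate 2, a mean of 284 ± 105 (SD, n = 2). It was close to 2 times the floor on both arrays. The second, 1449611_at, gave 189.7 and 100.2, just above the floor in replicate 1 and just below it in replicate 2. By the probe set above both floors, Cd82 was 1.70-fold higher in replicate 1. No fold is given for the other.

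Cd151 had 6 probe sets, and 0 of them were above both floors. The 3 whose names end in _x_at, a suffix the array maker gives to sets with probes that can match other transcripts, were all higher in replicate 2. They gave 64.0 and 80.4, 51.7 and 128.8, and 105.4 and 381, on replicates 1 and 2. The last 2 of these passed the floor of replicate 2 alone, by 1.23 and 3.63 times. The 3 other probe sets of Cd151 gave 7.10 and 12.2, 107 and 18.4, and 50.7 and 8.20, all below the floor. Signal for Cd151 above a floor was thus seen in _x_at probe sets and in replicate 2 only, and cross-hybridization was not tested.

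Cd9, whose protein marks marginal zone and B1 cells, gave 7.80 in replicate 1 and 19.8 in replicate 2 by its single probe set. These signals were 0.043 and 0.189 times the floor of the array. A low signal from 1 probe set sets no bound on the transcript, because a poorly binding probe set cannot be told apart from absent RNA.

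Of the 8 probe sets above both floors, 5 were higher in replicate 2 and 3 in replicate 1. By over 2-fold, 3 were higher in replicate 2 (1 each of Cd37, Ms4a1 and Cr2), or 37.5%, against 14.5% of all probe sets above both floors. In replicate 1 it was 1, of Cd37, or 12.5%, against 11.1%. The median log2 difference was 0.65, against 0.02 over all probe sets above both floors. Scaling changed these counts. After quantile normalization, which gives both arrays the same distribution, 0 were over 2-fold higher in replicate 2 and 2 in replicate 1, the second being Cd53 at a log2 difference of -1.54. After centring on the array median, which raises every log2 difference by 0.63, 5 were higher in replicate 2, Cd81 among them, and 1 in replicate 1. Shares over all probe sets after either scaling are not given here, so these counts are not read as particular to the members. The lead of replicate 1 was 2.92-fold for Cd53 with quantile normalization and 1.24-fold with centring, and 6.45-fold and 3.21-fold for 1419206_at of Cd37. For Cd82 it was 1.73-fold and 1.10-fold. The lead of replicate 2 for the brighter Ms4a1 probe set was 1.56-fold and 2.90-fold in the same order, 1.78-fold and 4.21-fold for the other, and 1.92-fold and 4.43-fold for 1425736_at of Cd37. The sign of 7 of the 8 held under both scalings and that of Cd81 turned, from 0.41 to -0.02, under quantile normalization.

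**Figure D3:**
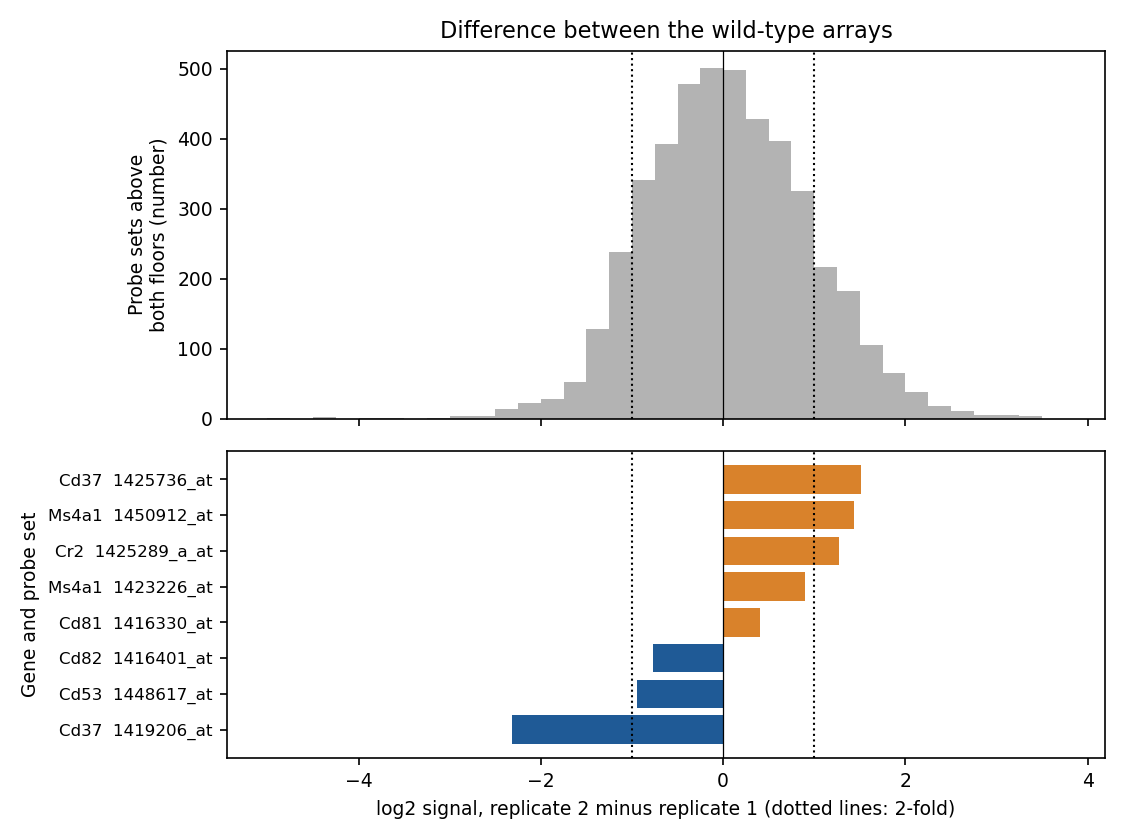
Top, histogram of log2 signal in replicate 2 minus replicate 1 for the 4518 probe sets above both floors; bottom, the same difference as bars for the 8 probe sets of Cd81, Cd37, Cd53, Cd82, Ms4a1 and Cr2 that passed, with dotted lines at 2-fold. The bars run from -2.32 to 1.51, both ends belonging to Cd37.

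Among the other tetraspanins on the array few passed. Of 20 measured genes, 4 (20.0%) were above both floors, near the 27.7% of all genes. Tspan13 gave 492 in replicate 1 and 967 in replicate 2, Tspan31 gave 251 and 241, Tspan32 gave 251 and 136.9, and Tspan3 gave 187 and 169, each by its brightest probe set. Tspan13 was close to 2-fold higher in replicate 2, at 1.97-fold, while its second probe set gave 407 and 429.5, and Tspan31 and Tspan3 lay within 1.11-fold. Tspan31 had 2 more probe sets, with 296.5 and 50, and 363.5 and 140.0, the first of them below the floor of replicate 2. Tspan32, a tetraspanin of blood cells, is the next protein-coding gene to Cd81 on chromosome 7 in the RefSeq annotation, and its signal was 1.83-fold higher in replicate 1, opposite in sign to Cd81.

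The MS4A family had 11 other measured genes, of which 2 (18.2%) were above both floors, against 27.7% of all genes. Ms4a4c gave 821.5 in replicate 1 and 2058 in replicate 2 by an _x_at probe set, and 625 and 882 by an _s_at probe set. Ms4a6b gave 371 and 425, a difference of 1.14-fold. Ms4a4c, like Ms4a1, was higher in replicate 2 by both of its probe sets, and cross-hybridization with related genes was not tested. The RefSeq annotation holds 21 Ms4a genes, all on chromosome 19 in a run of 22 protein-coding genes, and the next neighbours of Ms4a1 in it, Ms4a12 and Ms4a5, were not read by a probe set naming them alone.

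**Figure D4:**
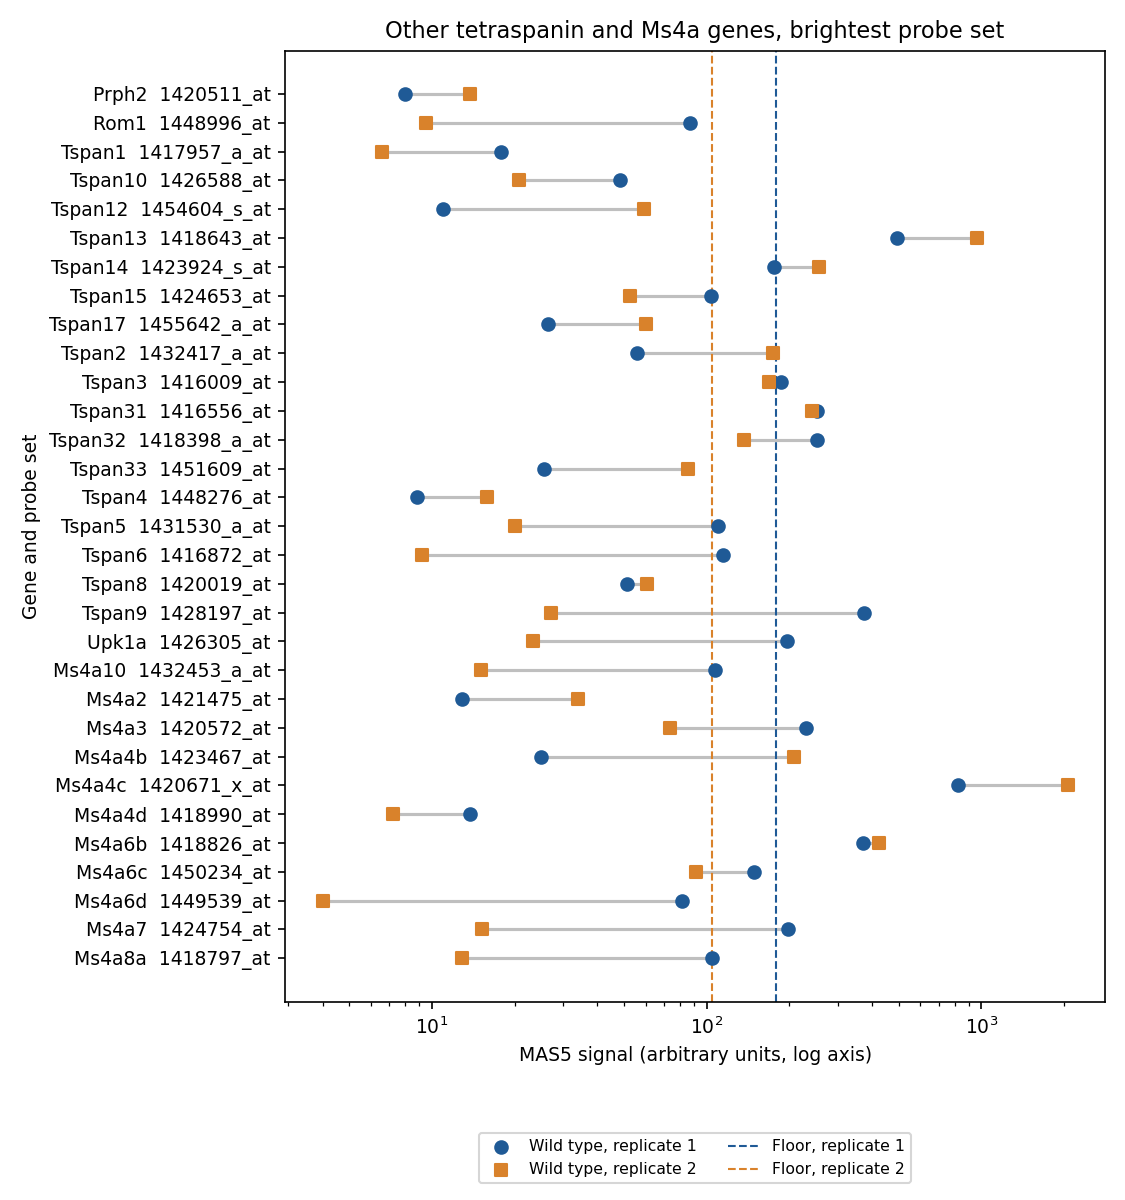
MAS5 signal (log axis) of the brightest probe set of 20 other tetraspanin genes and 11 other Ms4a genes, marked as circles for replicate 1 and squares for replicate 2, with dashed floors at 179 and 105. Tspan13, Tspan31, Tspan32, Tspan3, Ms4a4c and Ms4a6b have both points at or right of the floor of their array.

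Partners of the proteins were read by 3 lists. Of 5 measured genes for interferon-induced membrane proteins and signalling proteins that act with the coreceptor, 0 were above both floors. On each array alone 1 passed, both named after their values were seen. These were Pik3cd, a lipid kinase subunit, with 384 and 10.2, and Vav1, an exchange factor, with 94.4 and 177. The other Pik3cd probe sets gave 8.0 and 8.8, and 16.1 and 6.6, below both floors. Of 9 genes for complement receptors and regulators, 3 passed on both arrays. Fcer2a, which encodes the IgE receptor CD23 and a ligand of CD21, gave 1081 and 978, although its second probe set gave 315.5 and 9.40. Cd55, a complement regulator, gave 735 and 539, and a second probe set gave 441 and 278. Cr1l, the regulator that adjoins Cr2 on chromosome 1, gave 637 and 825.

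Of 10 genes for integrins and other partners of tetraspanins, 2 passed on both arrays. Itgb7, an integrin chain of gut-homing lymphocytes, gave 548 and 578.5, and the adhesion receptor gene Cd44 gave 240.5 and 360.0. A second Cd44 probe set gave 30.7 and 89.1, below both floors. Over the 3 lists 5 of 24 genes passed, or 20.8%, near the 27.7% of all genes. In replicate 1 alone 7 passed (29.2%, against 36.4% of all genes) and in replicate 2 alone 13 (54.2%, against 43.3%), where the floor was the lower.

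Markers of the sorted cells were present, and those of cells outside the B lineage mostly were not. All 5 measured genes of B cell identity were above both floors, among them Ighm at 12796 ± 4012, Cd22 at 4807 ± 699 and Cd79b at 2893 ± 334 (SD, n = 2, brightest probe sets). The arrays did not match for all of them: Cd79a gave 2931 in replicate 1 and 192 in replicate 2, 15.3-fold apart, and the second Cd22 probe set gave 889 and 274. Over 8 lists of cells outside the B lineage, 5 of 61 genes, or 8.20%, were above both floors, against 27.7% of all genes. Of the 59 organ-restricted genes that set the floor, 4 passed. Neutrophil markers had the highest share of the 8 lists and passed in 2 of 8 cases, Ngp (326.9 and 187.1) and S100a9 (205.4 and 229.9). T cell markers passed in 1 of 10, Zap70 (476.2 and 268.3), whose other probe set gave 37.8 and 43.5, below both floors. Platelets and macrophages carry Cd9 and Cd151, and follicular dendritic cells carry Cr2. Platelet markers passed in 0 of 6 cases, with summed signals of 738 in replicate 1 and 311 in replicate 2. Macrophage and monocyte markers passed in 2 of 10, Csf1r and Lyz2, with sums of 1192 and 864. Follicular dendritic and stromal markers passed in 0 of 9, with sums of 910 and 454. These sums consist mostly of signals below the floor, and that of the organ-restricted genes was also lower in replicate 2, at 5650 and 2810. The part of other cells in the signals of Cr2 and Cd151 was not tested. B1 markers passed in 0 of 5 cases, with sums of 422 and 133. Plasma cell markers passed in 2 of 6 (33.3%, near the 27.7% of all genes), with sums of 2424 and 2440. By brightest probe set, Irf4 gave 1270 and 348, and Xbp1 gave 569 and 1540. Another Xbp1 probe set gave 467 and 245, and another of Irf4 107 and 11.9. Jchain, with 94.7 and 453.5, passed in replicate 2 alone. The part of plasma cells in the sorted pool was not tested. Marginal zone markers, Cr2 and Cd9 left out, passed in 5 of 7 (71.4%, against 27.7% of all genes), with sums of 2622 and 3070. S1pr3 (36.6 and 24.4) and Myof (39.5 and 119.6, brightest probe set) did not pass on both arrays. The part of marginal zone cells in the sorted pool was not tested. Of the marginal zone genes that passed, Notch2 (905 and 1290) and Dtx1 (698 and 1088) were higher in replicate 2. Hes1 (309 and 154) and Pld4 (329 and 114.5) were higher in replicate 1. For Cd1d1 the probe set above both floors gave 305 and 280.0. Its other probe set gave 133.6, below the floor, and 326.3, so no single direction can be given for Cd1d1. The median log2 difference of the marginal zone probe sets above both floors was -0.12. In sorted cell pools, fewer cells of a type and less RNA per cell cannot be told apart.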

How the data were processed

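Biotin-labelled cRNA made from 6 µg of total RNA per sample was hybridized to 1 array each, per the labels. The authors deposited 1 linear signal intensity per probe set, made by MAS5 according to the submitters' processing notes; version and parameters are not given in the sources used here. The deposited columns had a 2% trimmed mean of 150.0 and 150.1, so each array had been scaled by 1 factor, which also multiplies background. No detection calls or counts were used. Precision is limited by the number of arrays.

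Of 22690 rows, 64 control probe sets were left out of gene results. Of 22626 gene probe sets, 20380 name 1 gene in the platform annotation, 691 several and 1555 none. All 16 probe sets described kept their symbol by Entrez identifier in RefSeq (GRCm38.p6). Differences are log2 signals, replicate 2 minus replicate 1, without further normalization. A gene in a list was read by its brightest probe set (highest log2 signal averaged over the arrays) and passed if any of its probe sets was above the floor on both arrays. Genes named are all members, up to 8 passing genes of each family and partner list, and up to 3 of each marker list. Beyond this rule stand the 7 measured marginal zone markers, those marked as chosen later, and Cd79a, named for its difference between the arrays. The members and lists were chosen with earlier results of these data known. No genes of like pattern were sought, because 2 arrays give 1 difference per probe set. Calculations used Python 3.11.15, pandas 2.3.3 and NumPy 2.4.6, with functions tested on simulated data. The alternatives were a floor at the 95th percentile or at the array median, quantile normalization, no floor, median centring, log2(signal + 32), the mean over probe sets, leaving out _x_at and _s_at probe sets, and leaving out each array.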

Additional observations from a re-analysis of the deposited data

How the results depend on the processing

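The count of 8 tetraspanin, Ms4a1 and Cr2 probe sets above both floors stayed at 8 with the 95th-percentile floor and with quantile normalization, was 10 with a floor at the array median, and was 9 to 10 with either array left out. Other tetraspanins numbered 4 above the floor, 2 with the 95th-percentile floor, and 6 to 7 with either array left out. Other Ms4a genes numbered 2, 4 with the array-median floor, and 3 to 4 with either array left out. Coreceptor and partner genes numbered 5, 10 with the array-median floor, and 7 to 13 with either array left out, 13 being the count without replicate 1. A rule that asks for 1 array in place of both admits more genes by construction. Probe sets over 2-fold higher on replicate 2 numbered 3, but 0 with quantile normalization, 5 with median centring and 6 with no floor. On replicate 1 they numbered 1, but 2 with quantile normalization and 3 with no floor. With no floor all 16 probe sets were counted. Shares over all probe sets under these settings are not given here, so the changed counts are not read as particular to the members. Taking the mean over all probe sets turned the log2 difference of Cd37 from 1.51 to -0.40 and that of Cd151 from 1.85 to -0.15, and leaving out _x_at probe sets turned Cd151 to -2.54; probe sets of opposite sign enter these means. The values of Cd151 rest on signals below the floor of 1 or both arrays, so neither its direction nor the turn can be interpreted. No paired analysis was possible because both arrays belong to 1 group. Signals below the floor have no interpretable order.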
